A study of Homo sapiens with 32 samples.

Results

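The 292 transcription start sites described here are those that were used more in LNCaP than in BicR cells before any androgen was given. They were taken from a table of 13294 sites by a mean of at least 10 RPM (the authors' depth-scaled tag count) in 3 LNCaP libraries and a LNCaP mean at least 2 times the mean of 3 BicR libraries. The 6 libraries used for the choice were the untreated one and both ethanol ones of each line. By the same thresholds turned round, 172 sites were higher in BicR.

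LNCaP is an established human prostate cancer line that responds to androgen. BicR is the other prostate cancer line used, and the labels leave its name unexplained. Whether it was derived from LNCaP is not stated here. Both were kept in charcoal-treated, hormone-depleted serum before treatment. Each line received 10 nM dihydrotestosterone (DHT, the natural androgen of the prostate), DHT with 1 µM bicalutamide (an androgen receptor antagonist), 1 µM bicalutamide alone, or ethanol as the vehicle, with 1 library of each at 6 h and at 24 h and 1 untreated library at 0 h. In a separate experiment LNCaP cells alone received R1881, a synthetic androgen, for 0, 3, 6, 12, 18, 48 and 72 h, with 2 libraries per time and no vehicle at the later times. The dose of R1881 is uncertain, since each sample is labelled 1 nM and the common protocol states a different one. Nothing states that libraries of a group came from separate cultures, and p-values therefore measure the spread between these libraries only.

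Cap analysis of gene expression (CAGE) reads the capped 5′ end of RNA, so a tag marks the base where transcription began and its strand. The androgen receptor is a nuclear receptor that binds DNA once it holds an androgen, and it both raises and lowers transcription of its targets in prostate cells. Antagonists such as bicalutamide compete for the same pocket. Many genes have several start sites, and these can be used differently in different cells, which gene-level sums do not show. The deposited tables pair no site with a gene, and sites are therefore given by hg19 chromosome, position and strand only. Without names, androgen receptor targets and lineage markers could not be read, and the labelled cell type was not checked against them.

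One library stood apart before any result was drawn. In the 6 h BicR library with both DHT and bicalutamide the median level of the 292 sites was 14.8 RPM, against 5.79 to 8.43 RPM in the other 8 BicR libraries. It held the highest BicR level at 209 of the 292 sites. There the 292 sites lay 32.3% of the way from the BicR to the LNCaP mean in RPM (median over sites, no log taken). The 172 sites higher in BicR lay 42.0% of the way from LNCaP to BicR there. At 232 sites with under 2 RPM in each of 15 other libraries, its median was 18.7 RPM, and the LNCaP libraries of bicalutamide and of DHT with bicalutamide at 6 h had medians of 1.66 and 0.471 RPM there. None of those 232 sites is among the 292. Whether it holds RNA of both lines, carries a wrong label or differs for another reason was not tested, and results that rest on it are given with and without it. Depth was 4139807 to 7753336 tags per library of the 2 lines, where 3 tags are 0.326 to 0.601 RPM, and 128463 to 3837493 tags in the R1881 experiment.

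In LNCaP the 292 sites had a median of 21.7 to 26.2 RPM over the 9 libraries, close to the median of all sites. Their level in BicR was below that of the typical site in every BicR library. The choice used the LNCaP and BicR means without androgen, which are given as description with no test. The median LNCaP mean was 24.2 RPM and the median BicR mean 7.75 RPM. The ratio had a median of 2.93, and ran from the threshold of 2 to 319.8. Most differences were modest, with 157 sites at 2 to under 3-fold, 64 at 3 to under 5-fold and 71 at 5-fold or more. A smaller set of 37 sites reached 10-fold, and 14 sites had a BicR mean under 1 RPM.

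**Figure D1:**
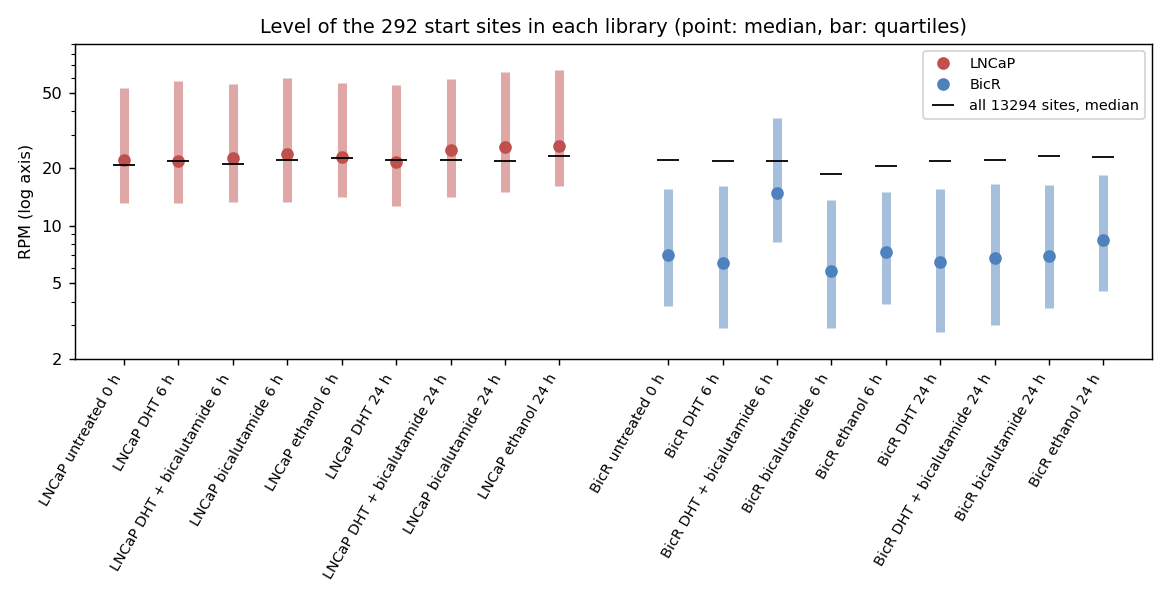
Level of the 292 start sites in each of the 18 libraries, in RPM on a log axis, with LNCaP libraries at the left and BicR libraries at the right. Points are medians over the sites, bars are quartiles and black dashes are medians of all 13294 sites; the 6 h BicR library with both agents sits at 14.8 RPM, above the other BicR libraries.

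The highest of all lay on chromosome 11 at 65266515 (plus strand). It had 4463, 7937 and 13789 RPM in untreated, 6 h ethanol and 24 h ethanol LNCaP cells, against 1946, 2594 and 3467 RPM in BicR cells. Every LNCaP value exceeded every BicR value there, and within each line the 24 h library was the highest. The next 3 by LNCaP level also had a clear BicR signal. On chromosome 18 the site at 40857454 (minus strand) averaged 1927 ± 629.6 RPM in LNCaP and 838 ± 225 RPM in BicR (SD, n = 3 libraries each). That on chromosome 16 at 69760462 (minus strand) averaged 1232 ± 179.8 RPM in LNCaP and 408 ± 18.9 RPM in BicR (SD, n = 3 each). The fourth, on chromosome 8 at 62627150 (minus strand), averaged 1084 ± 243 RPM in LNCaP and 332 ± 48.1 RPM in BicR (SD, n = 3 each). In all, 48 sites had a LNCaP mean of 100 RPM or more and 123 lay between 10 and 20 RPM.

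The largest ratios belonged to low sites that were nearly silent in BicR. The site on chromosome 12 at 81981118 (plus strand) had 10.5, 15.3 and 15.8 RPM in LNCaP, against 0, 0.13 and 0 RPM in BicR. That is 284 tags in LNCaP and 1 tag in BicR, a depth-corrected ratio of 335 with an exact 95% interval of 59.7 to 13285 that covers counting error only. A site on chromosome 11 at 4665211 (plus strand) had 657 tags in LNCaP and 3 in BicR (ratio 258, exact interval 88.1 to 1257), and one on chromosome 2 at 50634818 (plus strand) had 295 and 3 (ratio 116, exact interval 39.3 to 566). A site on chromosome 12 at 57630886 (minus strand) had 46.2, 16.5 and 12.3 RPM in LNCaP, against 0.119, 0.13 and 0.402 RPM in BicR. At these 4 sites no LNCaP value came near a BicR value in the libraries used for the choice, but how many fold the lines differ is poorly bounded. The same libraries chose the sites, and these 4 were picked for the largest ratios. The intervals do not allow for that selection. All 4 had 5.21 to 12.2 RPM in the BicR library that stands apart, against at most 0.555 RPM in any other BicR library.

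Around the thresholds the choice is one of degree. Just inside 2-fold were chromosome 3 at 174577123 (ratio 2.0002), chromosome 5 at 107656086 (2.0002) and chromosome 13 at 95953690 (2.0041). Just outside were chromosome 20 at 2821282 (1.9996), chromosome 11 at 34379554 (1.9995) and chromosome 7 at 2756537 (1.9976). At the level threshold, chromosome 18 at 9708269 entered with 10.006 RPM, chromosome 13 at 70310106 with 10.033 RPM and chromosome 12 at 54348671 with 10.039 RPM. Left out were chromosome X at 152486115 with 9.9662 RPM, chromosome 3 at 165770344 with 9.9447 RPM and chromosome 1 at 54359859 with 9.9339 RPM, whose LNCaP to BicR ratios of 2.09, 12.9 and 6.81 passed the 2-fold rule.

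The sites were spread over the genome. Joining same-strand members within 10 kb of each other gave 264 loci, of which 243 held a single member, 16 held 2, 3 held 3 and 2 held 4. The plus strand held 144 members and the minus strand 148. Members had no other same-strand site of the table within 10 kb in 195 of 292 cases (66.8%), against 78.1% of all sites. An opposite-strand site lay within 1 kb of 28 members (9.59%), against 3317 of all 13294. Cluster width in the R1881 table had a median of 159 bp for the 187 members listed there and of 159 bp for all shared sites. Chromosome 21 had the highest share of its sites among the members (11 of 175, 6.29%), followed by chromosome 15 (14 of 377, 3.71%) and chromosome 6 (23 of 657, 3.501%), against 2.20% of all sites. Chromosome 22 had 1 of 335 sites, and the Y chromosome and the mitochondrial genome had none of 75 and 49.

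The loci with most members are described without a test, since the rule fixed a ratio of at least 2 at each site. On chromosome 18 (minus strand, 40848374 to 40857454) 4 members summed to 2066 RPM in LNCaP and 891 RPM in BicR, with ratios of 2.23 to 5.54. On chromosome 19 (plus strand, 56169986 to 56182358) 4 members summed to 219 RPM in LNCaP and 23.9 RPM in BicR, with ratios of 2.78 to 20.9. The 3 loci of 3 members lay on chromosome 6 (minus strand, 31845017 to 31846773), chromosome 11 (minus strand, 65266783 to 65268076) and chromosome 4 (plus strand, 166788559 to 166794389). The chromosome 11 locus starts within 1 kb of the highest member of all, which is on the other strand. Its 3 sites summed to 85.6 RPM in LNCaP and 24.5 RPM in BicR.

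At some loci the difference belonged to one start site and not to its neighbour. On chromosome 19 the member at 56173363 (plus strand) averaged 128 RPM in LNCaP and 6.15 RPM in BicR, a ratio of 20.9. A non-member 6959 bp upstream on the same strand, at 56166404, had 162 RPM in LNCaP and 162 RPM in BicR, a ratio of 1.00. On chromosome 12 the member at 81984496 (plus strand) had 50.9 RPM in LNCaP and 0.822 RPM in BicR, whereas a site 7762 bp downstream at 81992258 had 17.5 and 13.2 RPM, a ratio of 1.33. On chromosome 1 the member at 153600886 (plus strand) had a ratio of 24.5, and a site 5669 bp downstream at 153606555 had 79.1 RPM in LNCaP and 77.3 RPM in BicR. Such pairs are the extremes of 41 members with a same-strand non-member of at least 10 RPM in LNCaP within 10 kb, picked by their gap in ratio. By the rule such a non-member has a ratio under 2. That member and neighbour differ was thus fixed by the choice, and only the size of the gap is described. Whether the paired sites belong to 1 gene is not known here.

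The difference between the lines was then read in the 12 libraries with DHT, bicalutamide or both, which had no part in the choice. Of the 292 sites, 276 were higher in LNCaP and 2 lower by edgeR's quasi-likelihood test at an adjusted p below 0.05, with a median log2 difference of 1.67. Over all 13213 sites tested the median was -0.01, and 20.2% were called higher and 21.8% lower. Every LNCaP library lay above every BicR library at 215 of 292 members (73.6%), against 7.62% of all sites. Without the library that stands apart this held at 257 members (88.0%), against 10.3% of all sites, and the median log2 difference was 1.88. Leaving out any 1 library left 271 to 283 members called.

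**Figure D2:**
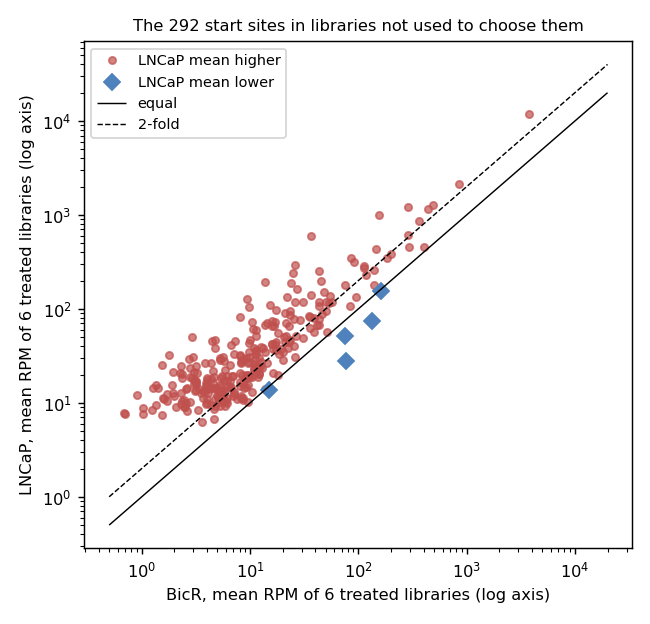
Mean level of each of the 292 sites over the 6 treated LNCaP libraries (vertical) and the 6 treated BicR libraries (horizontal), in RPM on log axes. Nearly all points lie above the line of equal level, and the 5 blue diamonds are sites whose LNCaP mean was the lower.

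The largest fitted differences were at sites with almost no BicR tags. At 4665211 on chromosome 11 (plus strand) the 6 treated LNCaP libraries had 20.3 to 49.3 RPM with a median of 30.2 RPM, and the BicR ones 0 to 10.6 RPM with a median of 0. The only BicR value above 0.116 RPM came from the library that stands apart. The fitted log2 difference was 9.30 (SE 0.42, edgeR adjusted p = 6.51e-06), or 10.84 without that library. A site on chromosome 5 at 28367981 (plus strand) had 5.20 to 15.2 RPM in LNCaP (median 8.09) and 0 to 6.21 RPM in BicR (median 0), with a log2 difference of 8.93 (SE 0.70, edgeR adjusted p = 5.28e-05). Some BicR treatments had 0 tags at both sites, so these fitted values depend on the prior count and are not bounds.

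The 2 sites that turned lower in LNCaP were both ones that rose with DHT in BicR. At 134309494 on chromosome 8 (minus strand) LNCaP had 94.2 and 71.6 RPM with DHT, 77.7 and 58.7 RPM with DHT and bicalutamide, 85.9 and 60.1 RPM with bicalutamide and 59.2 and 56.7 RPM with ethanol (6 h and 24 h). BicR had 254 and 124 RPM with DHT, 208 and 91.4 RPM with DHT and bicalutamide, 90.7 and 41.2 RPM with bicalutamide and 26.9 and 42.8 RPM with ethanol. The BicR values with DHT were thus above all LNCaP values, and the BicR values with ethanol below them. The line difference in treated libraries was -0.66 (log2, SE 0.07, edgeR adjusted p = 7.17e-05), and the rise with DHT in BicR was 2.24 (SE 0.34, edgeR adjusted p = 0.00355). At 95953690 on chromosome 13 (minus strand) LNCaP had 58.9 and 78.4 RPM with DHT, against 34.0 and 38.0 RPM with ethanol, and BicR had 71.6 and 117 RPM with DHT, against 16.9 and 15.4 RPM with ethanol. Its line difference of -0.54 (SE 0.16, edgeR adjusted p = 0.018) kept its call in 6 of 12 fits that left out a library. Its adjusted p ran as high as 0.0837 in those, and without a time term neither site passed (adjusted p = 0.103 and 0.105). The rises with DHT in BicR, at 2.46 for this site (SE 0.33, edgeR adjusted p = 0.00227), share DHT libraries with the line difference. The ethanol libraries helped choose both sites as low in BicR. Their low BicR values with ethanol, and the rises from these, are therefore not independent of the choice.

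Few of the sites passed the test for DHT in LNCaP, though 37 had an unadjusted edgeR p below 0.05. Here and below, such unadjusted counts were taken for the members only. With no share of all sites beside them, they do not show whether the members stand out. Of 292 sites 3 rose and 0 fell against ethanol, where 0.129% of all 13214 sites were called either way (0.121% higher, 0.00757% lower). At 42880084 on chromosome 21 (minus strand) LNCaP had 299.8 and 245 RPM with DHT at 6 h and 24 h, against 35.7 and 38.0 RPM with ethanol. Adding bicalutamide to DHT gave 217 and 93.3 RPM, and bicalutamide alone 30.5 and 43.7 RPM. Both DHT values exceeded all LNCaP values of the other treatments. The rise over ethanol was 2.91 (log2, SE 0.40, edgeR adjusted p = 0.018), but it passed in none of 4 fits that left out a library (adjusted p 0.0975 to 0.373).

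At 51358170 on chromosome 19 (plus strand) LNCaP had 1504 and 2189.6 RPM with DHT, against 434 and 357 RPM with ethanol. It had 1666 and 1306 RPM with both agents and 467 and 449.8 RPM with bicalutamide alone. The libraries with DHT, with or without bicalutamide, did not overlap those without DHT. The rise over ethanol was 2.27 (SE 0.21, edgeR adjusted p = 0.00172) and the call was lost without the 24 h ethanol library (adjusted p = 0.109). The remaining rise was on chromosome 2 at 193059641 (minus strand), with 39.9 and 34.4 RPM with DHT, against 15.3 and 15.3 RPM with ethanol (log2 1.32, SE 0.22, edgeR adjusted p = 0.0484); it is named as the last of 3 after its values were seen. Leaving out the 24 h ethanol library left 0 sites called in LNCaP, leaving out any 1 of the other 3 libraries left 1, and leaving out the BicR library that stands apart gave 6 higher and 2 lower, where 0.469% of all sites were then called either way.

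Most of the other sites had slightly lower values with DHT. In LNCaP 208 of 292 (71.2%) had a negative log2 change with DHT against ethanol, with a median of -0.18, against 52.9% of all sites and a median of -0.01. The ethanol libraries helped choose the sites, so this comparison is not independent of the choice. Against bicalutamide alone in LNCaP, whose 4 libraries had no part in the choice but share DHT with the first comparison, 208 of 292 were below 0, with a median of -0.14, against a median of -0.01 over all sites. There 4 members rose and 0 fell, where 0.189% of all sites were called (0.151% higher, 0.0378% lower). The rises at 42880084 on chromosome 21 (log2 2.85, SE 0.39) and at 51358170 on chromosome 19 (2.01, SE 0.21) were among these 4 (edgeR adjusted p = 0.0147 and 0.00571). Leaving out a bicalutamide library left 0 called, leaving out a DHT library left 1, and without the BicR library that stands apart 5 rose and 3 fell, where 0.462% of all sites were then called.

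Adding bicalutamide to DHT gave 0 calls among the 292 sites in LNCaP by the edgeR test, where 0% of all sites were called, with 3 members at an unadjusted p below 0.05 and 0 called by DESeq2. The log2 change was above 0 at 208 of 292 sites, with a median of 0.13. This comparison shares its DHT libraries with those above. Among sites averaging at least 10 RPM over the libraries compared, the largest positive change was at 97345305 on chromosome 6 (minus strand). It had 18.8 and 18.1 RPM with both agents, against 14.7 and 8.66 RPM with DHT (log2 0.68, SE 0.51, edgeR adjusted p = 1). The largest negative change was at 42880084 on chromosome 21, at -0.81 (SE 0.36, edgeR adjusted p = 1). Bicalutamide alone against ethanol also gave 0 edgeR calls in LNCaP, where 0.00757% of all sites were called, with 3 members at an unadjusted p below 0.05, 0 by DESeq2 and a median of -0.04. Among sites of that level the most negative value was at 134260540 on chromosome 10 (plus strand), with 12.4 and 12.5 RPM with bicalutamide, against 17.1 and 17.1 RPM with ethanol (log2 -0.41, SE 0.30, edgeR adjusted p = 1.00). The most positive, at 149095434 on chromosome 3 (minus strand), was 1.27 (SE 1.01). It was -0.18 without the 3 libraries with tags at near-empty sites.

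**Figure D3:**
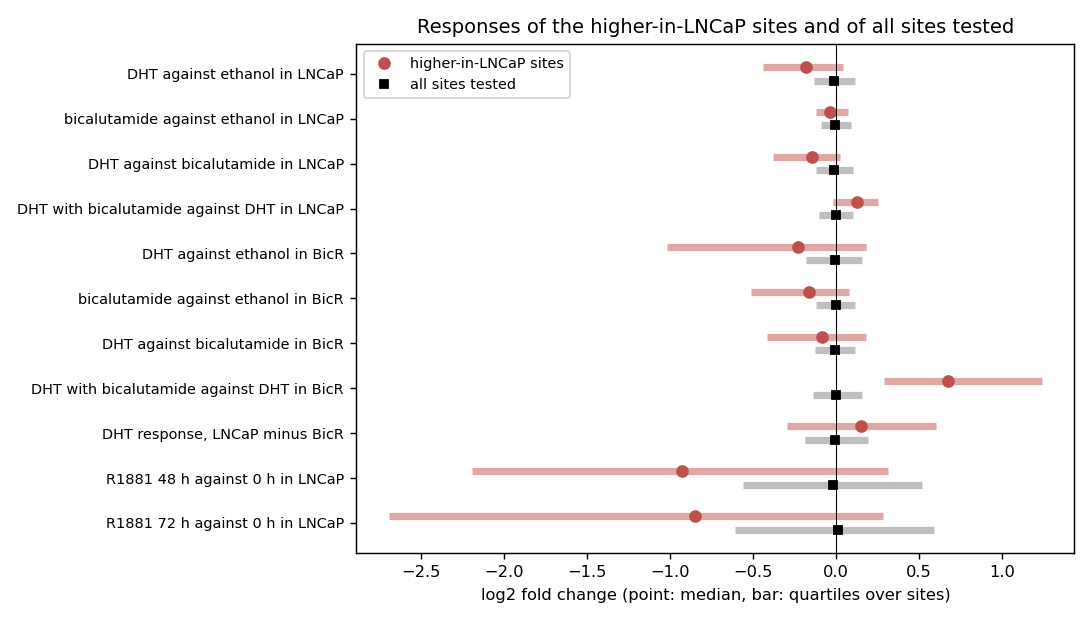
Log2 fold changes of the 292 sites (182 for R1881) and of all sites tested, for each comparison named at the left. Points are medians and bars quartiles over sites; red marks the sites higher in LNCaP and black with grey marks all sites, whose medians stay near 0.

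More of the sites were called with DHT in BicR than in LNCaP, as was so over all sites. The edgeR test of a difference in this response between the lines, given below, called 0 of the 292. In BicR 100 members had an unadjusted edgeR p below 0.05, a count not taken over all sites. DHT raised 15 and lowered 10 of the 292 against ethanol, where 3.41% of all sites were called (2.22% higher, 1.18% lower). At 42880084 on chromosome 21 BicR had 246 and 248 RPM with DHT, against 15.5 and 14.7 RPM with ethanol. The rise was 4.01 (log2, SE 0.43, edgeR adjusted p = 0.000894), and it passed in 4 of 4 fits that left out a library. At 156261278 on chromosome 1 (minus strand) BicR had 20.3 and 46.5 RPM with DHT, against 4.03 and 5.49 RPM with ethanol, a rise of 2.75 (SE 0.37, edgeR adjusted p = 0.00241) that also passed in 4 of 4. The site at 51358170 on chromosome 19 had 431 and 623 RPM with DHT in BicR, against 101.6 and 101.9 RPM with ethanol, a rise of 2.32 (SE 0.21, edgeR adjusted p = 0.00033) given here beside its LNCaP values. LNCaP had 32.7 and 50.5 RPM with DHT at the chromosome 1 site, against 15.4 and 23.5 RPM with ethanol. Of the 15 sites that rose in BicR, 12 were above 0 with DHT in LNCaP, and of the 10 that fell, 8 were below 0 there. Of all 292 sites, 84 were above 0 and 208 below 0 in that LNCaP comparison. Ethanol libraries of both lines helped choose the sites, so these counts are not independent of the choice.

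Among the sites that fell, 84615272 on chromosome 1 (minus strand) had 1.60 and 2.91 RPM with DHT in BicR, against 12.0 and 21.1 RPM with ethanol (log2 -2.88, SE 0.54, edgeR adjusted p = 0.0118). In LNCaP the same site had 21.2 and 17.8 RPM with DHT, against 29.5 and 51.2 RPM with ethanol. At 167453510 on chromosome 3 (plus strand) BicR had 2.32 and 2.64 RPM with DHT, against 7.93 and 10.7 RPM with ethanol (log2 -1.93, SE 0.43, edgeR adjusted p = 0.0291). At both sites the DHT values lay below every other BicR value, and both calls passed in 1 of 4 fits that left out a library.

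The balance of these calls in BicR rests on single libraries. Leaving out the library that stands apart, which is in neither group compared but enters the estimate of the spread, gave 19 higher and 57 lower. Calls rose over the whole table too in that fit, to 5.72% of all sites (756 sites without the library, against 450 with it). Leaving out the 6 h ethanol library gave 8 higher and 15 lower, the 6 h DHT library 11 and 0, the 24 h ethanol library 9 and 1, and the 24 h DHT library 9 and 0. Over all members the median log2 was -0.23, with 184 of 292 below 0, against -0.01 over all sites. This comparison too uses ethanol libraries that chose the sites, and against bicalutamide alone the median in BicR was -0.09 with 0 called by edgeR and by DESeq2 (26 members at an unadjusted p below 0.05), where 0.00757% of all sites were called. Among sites averaging at least 10 RPM over those libraries, the most negative value was at 228678557 on chromosome 2 (plus strand). It had 16.1 and 24.6 RPM with DHT, against 19.8 and 79.1 RPM with bicalutamide (log2 -1.22, SE 0.45, edgeR adjusted p = 0.919). The most positive, at 42880084 on chromosome 21, was 1.49 (SE 0.37, edgeR adjusted p = 0.869).

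Bicalutamide alone raised 3 of the sites in BicR, where 0.197% of all sites were called (0.159% higher, 0.0378% lower). The ethanol libraries helped choose the sites as low in BicR, so these rises are not independent of the choice. The site at 42880084 on chromosome 21 had 105 and 60.7 RPM with bicalutamide, against 15.5 and 14.7 RPM with ethanol (log2 2.52, SE 0.42, edgeR adjusted p = 0.0476). The site at 51358170 on chromosome 19 had 277 and 419 RPM with bicalutamide, against 101.6 and 101.9 RPM with ethanol (log2 1.79, SE 0.21, edgeR adjusted p = 0.0232). The last, at 92539621 on chromosome 12 (minus strand), had 371 and 310.0 RPM with bicalutamide, against 142 and 167 RPM with ethanol, and is named as the last of 3 after its values were seen. Neither library with bicalutamide overlapped the ethanol libraries at any of the 3 sites. In LNCaP the same sites had 30.5 and 43.7, 467 and 449.8, and 344 and 364 RPM with bicalutamide, against 35.7 and 38.0, 434 and 357, and 343 and 345 RPM with ethanol. That the lines differ in this response was not tested. Without the 6 h ethanol library 0 members passed, without the 6 h bicalutamide library 1, without the 24 h bicalutamide library 5, and without the library that stands apart 5 rose and 7 fell, where 0.878% of all sites were then called.

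**Figure D4:**
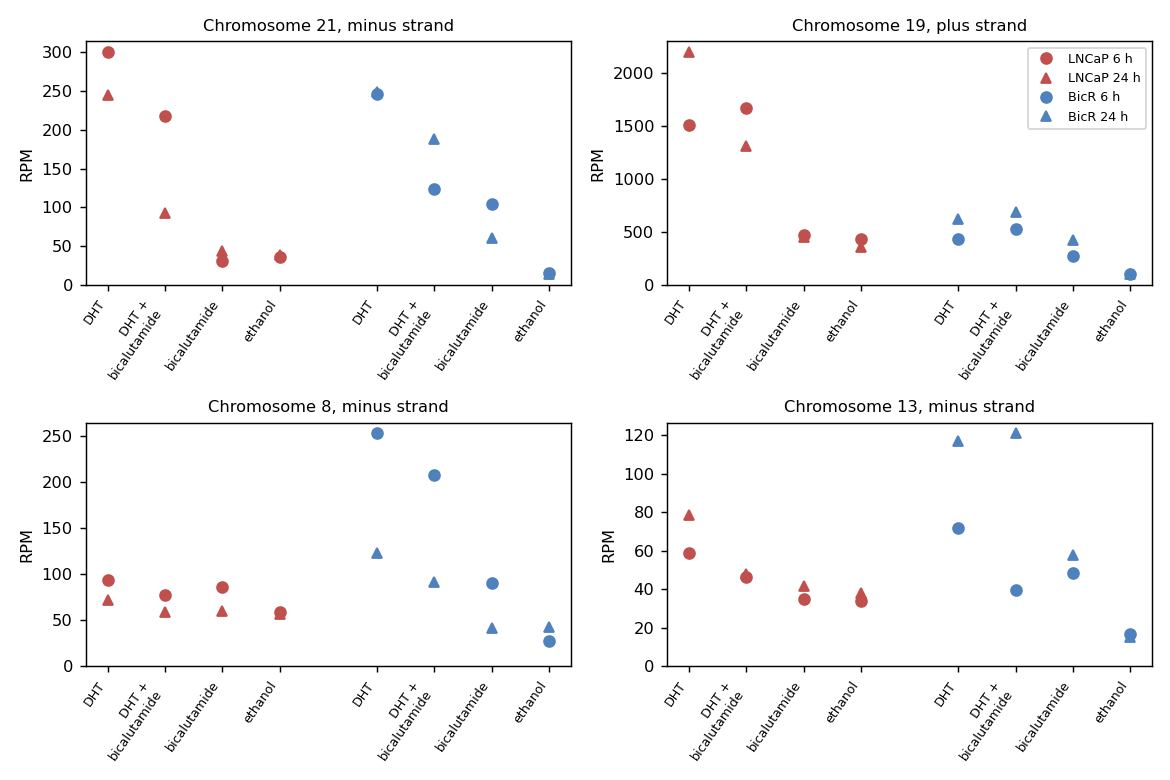
Level of 4 sites in each treated or ethanol library, in RPM from 0, with LNCaP in red at the left of each panel and BicR in blue at the right (circles 6 h, triangles 24 h). With DHT both lines rise at the chromosome 21 and 19 sites, and at the chromosome 8 and 13 sites the BicR value with DHT is above that of LNCaP at each time.

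DHT with bicalutamide against DHT in BicR turned on the library that stands apart. With it, 264 of 292 sites lay above 0 and the median log2 was 0.68, with 0 called by edgeR, 1 by DESeq2 and 123 at an unadjusted p below 0.05, where 0.144% of all sites were called. Without it the median was -0.01 and 0 were called by edgeR. Leaving out the 24 h library of the same treatment instead, 161 sites were called higher and 1 lower, where 6.89% of all sites were called (916 sites, against 19 with both libraries). Among sites averaging at least 10 RPM over the libraries compared, the largest change was at 149095434 on chromosome 3 (minus strand). It had 449 and 2.90 RPM with both agents, against 3.34 and 4.72 RPM with DHT (log2 4.75, SE 1.40, edgeR adjusted p = 0.429). The change turned negative in both fits without the library that stands apart (as low as -0.36). In the other 8 BicR libraries that site had 1.20 to 4.72 RPM, while LNCaP had 64.5 and 36.4 RPM in the 6 h libraries of bicalutamide and of both agents, and 12.0 to 19.7 RPM in its other 7. The largest negative change at that level was at 77637390 on chromosome 4 (plus strand), at -0.80 (SE 0.27, edgeR adjusted p = 0.472).

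The DHT response was then compared between the lines, with ethanol libraries of both lines that helped choose the sites and so not independently of the choice. The test of LNCaP minus BicR gave 0 calls by edgeR, where 0% of all sites were called, and 1 by DESeq2, with 29 members at an unadjusted p below 0.05, and the median log2 difference was 0.15. Among sites averaging at least 10 RPM over the libraries compared, the largest negative difference was at 70080464 on chromosome 4 (minus strand). LNCaP had 39.6 and 21.7 RPM there with DHT, against 33.5 and 33.6 RPM with ethanol, and BicR had 4.94 and 16.5 RPM with DHT, against 1.95 and 1.74 RPM with ethanol (log2 -2.58, SE 0.59, edgeR adjusted p = 0.634). The largest positive difference, at 4665211 on chromosome 11 (plus strand), was 2.24 (SE 2.96, edgeR adjusted p = 0.953). It turned negative in 2 of 14 alternative fits. Leaving out the 24 h ethanol library of BicR gave 1 call, lower in LNCaP.

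The R1881 experiment, whose libraries were all outside the choice, listed 187 of the 292 sites under the same name, and 182 passed its filter on low counts. A further 65 lay inside a cluster of another name. Most of the 182 sites were lower at the later times. Their median log2 change against 0 h was -0.19 after 3 h and -0.58 after 6 h of R1881. It was -0.60 after 12 h and -0.98 after 18 h. The last values were -0.93 (48 h) and -0.85 (72 h). The medians of all 15999 sites tested were between -0.11 and 0.01. At 72 h 127 of 182 (69.8%) were below 0, against 49.5% of all sites. Taking clusters by position in place of name, 243 were tested, and their medians were -0.71 at 48 h and -0.80 at 72 h.

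By the edgeR test at 48 h 6 of the 182 rose and 13 fell, where 1.89% of all sites were called either way (1.39% higher, 0.494% lower). At 72 h 5 rose and 20 fell, where 2.5% of all sites were called (1.51% higher, 0.988% lower). What the replicate numbers of this experiment stand for is not stated, though same-numbered libraries deviated together. With a block for these numbers there were 14 rises and 55 falls at 48 h, and 21 and 65 at 72 h. Over all sites the block gave calls at 8.54% at 48 h and 12.2% at 72 h, either way. At the earlier times with the block, 1 had risen and 0 fallen at 3 h (0.288% of all sites called), 5 had risen and 16 fallen at 6 h (6.61%), 6 and 15 at 12 h (1.98%), and 9 and 38 at 18 h (13%). Without the block, leaving out 0 h replicate 1, 48 h replicate 1, 0 h replicate 2 or 48 h replicate 2 left 1 rise and 3 falls, 2 and 2, 1 and 5, and 3 and 0 at 48 h. Leaving out 0 h replicate 1, 72 h replicate 1, 0 h replicate 2 or 72 h replicate 2 left 2 rises and 8 falls, 4 and 9, 1 and 6, and 3 and 2 at 72 h. The median stayed between -0.73 and -1.18 at 48 h and between -0.76 and -1.25 at 72 h.

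The median change was more negative in the groups of sites with a larger LNCaP to BicR ratio. For sites 2 to under 3-fold higher in LNCaP (102 tested) the median was -0.56 at 48 h and -0.53 at 72 h. For 3 to under 5-fold (44 tested) it was -1.27 and -1.26. For 5-fold or more (36 tested) it was -2.46 and -2.84, with 30 of 36 below 0 at 48 h and 31 of 36 at 72 h, none called higher, and 5 and 6 called lower. With sites at 0 tags set to the bound that 3 tags allow, the last medians were -2.14 and -2.58. The ratio that makes these groups came from the other experiment, and whether the groups differ was not tested.

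**Figure D5:**
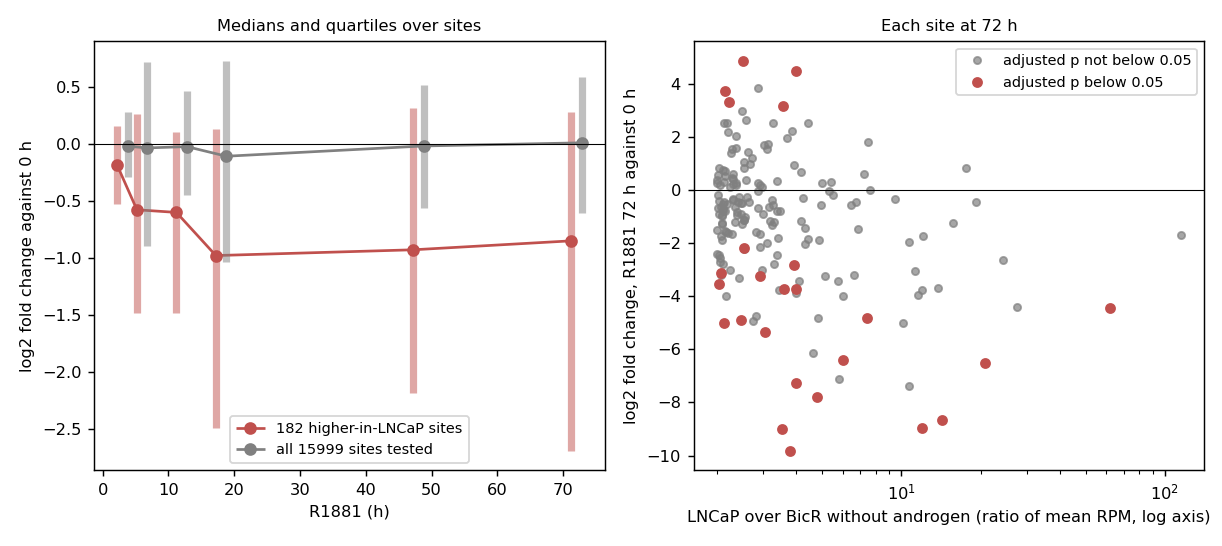
Left, log2 change against 0 h by hours of R1881 in LNCaP, as medians (points) and quartiles (bars) over 182 of the sites (red) and all 15999 sites tested (grey), drawn slightly to either side of each time. Right, each of the 182 sites at 72 h against its LNCaP to BicR ratio without androgen on a log axis, with sites at an edgeR adjusted p below 0.05 in red; points further right tend to lie lower.

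The largest falls ended at 0 or few tags. At 50547682 on chromosome 7 (minus strand) the 2 replicates had 94.9 and 40.8 RPM at 0 h, 85.5 and 31.8 RPM at 3 h and 45.6 and 27.4 RPM at 6 h. They had 18.6 and 8.65 RPM at 12 h, 6.48 and 2.48 RPM at 18 h, 1.53 and 0 RPM at 48 h, and 0 and 0 RPM at 72 h. Both replicates had lower values at each successive time up to 48 h. In replicate 1, 3 tags are 19.4 RPM at 18 h and 4.59 RPM at 48 h. Its values there lie below these, so its last steps are not resolved. The 72 h level was at least 36.3-fold lower than 0 h, taking 3 tags per library as the floor, and edgeR's adjusted p was 0.00189. DHT in the other experiment gave this site 85.1 and 70.0 RPM in LNCaP, against 105 and 137 RPM with ethanol. In BicR it had 14.8 and 4.86 RPM with DHT, against 23.9 and 41.1 RPM with ethanol.

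At 70316201 on chromosome 13 (minus strand) the replicates had 0 and 0 RPM at 72 h, against 15.8 and 59.5 RPM at 0 h. That was at least 20.2-fold lower (edgeR adjusted p = 0.00674), although the call was lost without 0 h replicate 2 or 72 h replicate 2. At 54789868 on chromosome 10 (minus strand) the replicates had 57.8 and 18.7 RPM at 0 h. The site had 11.4 RPM (under the 17.1 RPM of 3 tags) and 4.08 RPM at 6 h, and no tag at 48 h or 72 h. Its level was at least 14.2-fold lower at 48 h (edgeR adjusted p = 0.00835) and at least 20.5-fold lower at 72 h (0.00527), and the 48 h call was lost without 0 h replicate 1 or 48 h replicate 2. The same site had 34.9 and 13.9 RPM with DHT in LNCaP, against 61.5 and 57.8 RPM with ethanol and 70.0 and 60.5 RPM with bicalutamide. At 164796283 on chromosome 3 (minus strand) the replicates had 0 and 0 RPM at 48 h, against 38.8 and 7.71 RPM at 0 h, at least 8.62-fold lower (edgeR adjusted p = 0.0476), a call lost in each of 4 fits without a library.

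The start site on chromosome 19 at 56173363, whose upstream neighbour had a ratio of 1.00, had 0 and 0.461 RPM at 72 h of R1881, against 72.8 and 11.8 RPM at 0 h. With 2 tags at 72 h and 135 at 0 h, the depth-corrected ratio of 0 h over 72 h was 73.5 (exact interval 19.96 to 613), the fall passed the test (edgeR adjusted p = 0.0157), and it is named here for that neighbour, after its values were seen. In the DHT experiment LNCaP had 128 and 67.3 RPM there with DHT, against 134 and 120.2 RPM with ethanol.

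The rises were fewer and large. At 42880084 on chromosome 21 the replicates had 111 and 35.5 RPM at 0 h, 723 and 429 RPM at 3 h, 1252 and 773 RPM at 12 h, 1879 and 1049.7 RPM at 48 h and 1705 and 2312 RPM at 72 h. Every later value exceeded both 0 h values. The log2 change was 4.38 at 48 h (SE 0.60, edgeR adjusted p = 0.00296) and 4.86 at 72 h (SE 0.62, edgeR adjusted p = 0.00145), and both calls passed in 4 of 4 fits that left out a library. At 92219926 on chromosome 9 (plus strand) the replicates had 642 and 111 RPM at 48 h, against 34.0 and 13.5 RPM at 0 h (log2 4.05, SE 0.78, edgeR adjusted p = 0.017), a call that passed in 1 of 4 such fits.

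On chromosome 14 the site at 102027831 (plus strand) had its highest values at 72 h. It had 7.91 and 4.68 RPM at 0 h, 0 and 1.97 RPM at 12 h, 0 and 0.621 RPM at 18 h, 45.9 and 26.3 RPM at 48 h and 185 and 84.0 RPM at 72 h. In replicate 1, 3 tags are 7.97 RPM at 12 h and 19.4 RPM at 18 h, so the values of 0 there cannot be told from the 0 h level. The 72 h change was 4.50 (log2, SE 0.75, edgeR adjusted p = 0.00674), and it passed in 2 of 4 fits without a library. In the DHT experiment it changed little in LNCaP, with 58.4 and 85.0 RPM with DHT, against 64.4 and 87.7 RPM with ethanol.

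The site on chromosome 19 at 51358170 had 11907 and 6584 RPM at 72 h, against 2599 and 1532 RPM at 0 h. All values at 48 h and 72 h exceeded both 0 h values, and the log2 change of 2.20 at 72 h had an edgeR adjusted p of 0.059. Its DHT rise in LNCaP was 2.27, but DHT ran to 24 h and R1881 to 72 h, so the sizes are not compared.

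The sites called with R1881 were then read in the DHT experiment. Of the 21 sites called lower at 48 h or 72 h of R1881, 20 lay below 0 with DHT against bicalutamide in LNCaP (median -0.38) and 17 in BicR (median -0.40). Over all 292 sites those shares were 71.2% and 57.2%. Against ethanol, 20 of 21 lay below 0 in LNCaP (median -0.46) and 18 of 21 in BicR (median -1.32). Of the 7 sites called higher with R1881, 6 lay above 0 with DHT against ethanol in each line. Of all 292 sites, 208 lay below 0 against ethanol in LNCaP and 184 in BicR, with 84 and 108 above 0. The ethanol libraries helped choose the sites, so the counts against ethanol are not independent of the choice. None of the 21 passed the DHT test in LNCaP.

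The untreated LNCaP cells of the 2 experiments differed in level at some sites. The site on chromosome 8 at 62627150 had 803 RPM in untreated LNCaP cells of the line experiment, and 57.8 and 379 RPM in the 2 libraries at 0 h of R1881. The site on chromosome 16 at 69760462 had 1314 RPM there, and 328 and 294 RPM at 0 h of R1881. The chromosome 16 site had 1385 and 842 RPM at 48 h of R1881 (log2 1.89, SE 0.45, edgeR adjusted p = 0.0436). The tables were normalized separately, so these levels are set side by side without a test.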

How the data were processed

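Tags were counted at start sites in 32 CAGE libraries (HeliScope, per the labels' protocols), on hg19 per the submitters' processing notes. The deposited counts are whole tags per site, and the deposited RPM values are those counts times 1 factor per library, as tested on the values. The aligner and cluster caller are not given in the sources used here. The members and lists were chosen with earlier results of these data known. Sites were named by the rule of largest values in each comparison, 2 rises and 2 falls at most, and by level, ratio and locus, with exceptions stated. Where none passed, 1 rise and 1 fall were taken among sites averaging at least 10 RPM over the libraries compared. Counts were tested in R 4.3.3 with edgeR 4.0.16 (TMM, quasi-likelihood F test, Benjamini-Hochberg over all sites, threshold 0.05), after filterByExpr with a minimum count of 10. SE is that of the log2 fold change. Lines and treatments had 1 library per time, so 6 h and 24 h stood in for replicates, with a centred time term per line. The R1881 fit had 1 coefficient per time over 14 libraries. Same-numbered R1881 libraries deviated together (r 0.167 to 0.579, median 0.342, 21 of 21 pairs of times, 11365 sites), so block counts are given. Replicate 1 was also the shallower at each time, and the reason for the shared deviation was not tested. DESeq2 1.42.0, RLE size factors, other filters on low counts, no time term, the block and leaving out libraries were alternatives. The tests were checked on simulated data. Intervals and floors of 3 tags cover counting error only.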

Additional observations from a re-analysis of the deposited data

Results flagged for a closer look

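In the 6 h BicR library with both DHT and bicalutamide the 292 sites had a median of 14.836 RPM, far from the other 8 BicR libraries. Its gap to the next library took 0.708 of the whole range of 9.04 RPM over the 9 libraries, above the value of Dixon's test at the 95% level. The next library is the 24 h ethanol one (8.43 RPM), and it and the untreated and 6 h ethanol libraries helped choose the sites as low in BicR, so the gap is not independent of the choice. Chance alone would mark about 1 in 20 such groups.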

How the results depend on the processing

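With DESeq2, 5 of the 292 sites were called for DHT against ethanol in LNCaP, 35 in BicR (15 higher, 20 lower), 6 for bicalutamide against ethanol in BicR, 1 for DHT with bicalutamide against DHT in BicR and 1 for the line difference in the DHT response. Over all 13214 sites the DESeq2 counts were 54, 442, 78, 6 and 4. Without a time term the member counts were 1 for DHT against bicalutamide in LNCaP, 12 for DHT against ethanol in BicR and 0 for bicalutamide against ethanol in BicR. Over all sites they were then 1, 179 and 0. The next settings were chosen after seeing the data. Without the 6 h BicR library with both agents the member counts were 8 for DHT against ethanol and 8 against bicalutamide in LNCaP, and 76 for DHT (19 higher, 57 lower) and 12 for bicalutamide (5 higher, 7 lower) against ethanol in BicR. Over all 13211 sites they were 62, 61, 756 and 116. Without all 3 libraries with tags at sites near-empty elsewhere, 54 members were called for DHT (15 higher, 39 lower) and 5 for bicalutamide against ethanol in BicR. Over all 13070 sites these counts were 458 and 45. That setting left 1 bicalutamide library in LNCaP, and the median log2 of DHT against bicalutamide there was -0.20. With replicate 2 of 6 h and of 18 h left out, R1881 gave 35 calls at 48 h and 44 at 72 h. Of all 17380 sites, 639 and 960 were then called.

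Leaving out 1 library at a time gave 271 to 283 calls for the lines in treated libraries. In LNCaP it gave 0 to 1 for DHT against ethanol and 0 to 1 against bicalutamide. In BicR it gave 9 to 23 for DHT against ethanol, 0 to 5 for bicalutamide against ethanol and 0 to 162 for DHT with bicalutamide against DHT. It gave 0 to 1 for the line difference in the DHT response, 3 to 6 for R1881 at 48 h and 5 to 13 at 72 h. More sites were called lower than higher in BicR with DHT without the 6 h ethanol library (8 higher, 15 lower, 23 in all). More were called higher than lower without R1881 48 h replicate 2 (3 in all) or 72 h replicate 2 (5 in all). With the replicate block, R1881 gave 69 calls at 48 h and 86 at 72 h, against 19 and 25 without it. The cause of these changes was not tested, beyond the fewer libraries of some fits. None of the 22 single-site results recomputed, those of sites that passed a test, changed sign. Of the largest changes that did not pass, chromosome 3 149095434 turned negative for DHT with bicalutamide against DHT in BicR without the 6 h library (as low as -0.36, against 4.75 with it) and for bicalutamide against ethanol in LNCaP without all 3 libraries named above (-0.18). Chromosome 11 4665211 turned negative for the line difference in the DHT response without the 6 h DHT or the 24 h ethanol library of BicR. Each line has 1 library per treatment and time, so the spread rests on the difference of 6 h and 24 h, and 3 tags in the shallowest R1881 library are 19.4 RPM.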
